A study of Mus musculus with 23 samples.

Results

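The genes described here encode the machinery that shows peptides to T cells on major histocompatibility complex (MHC) molecules: *B2m*, *Tap1*, *Tap2*, *Tapbp*, *Psmb8*, *Psmb9*, *H2-D1*, *H2-K1*, *H2-Aa* and *Cd74*. They were chosen by name, and every probe set annotated to 1 of them alone was kept, which gave 30 of the 34958 single-gene probe sets on the array (45101 in all) and 10 of 18194 genes. Another 3 probe sets that name a member together with a further gene were left out. RNA of 23 samples had been read on Affymetrix whole-genome mouse arrays. The CRISPR-Ptch1 medulloblastomas (MBs), in which Cas9 and a guide RNA disrupted *Ptch1* in somatic cells, were 2 tumours from *in utero* electroporation (EP) of wild-type embryos and 1 tumour from postnatal transfection (TF) of a *Trp53*-/- mouse. They were set against 4 GTML tumours (*Glt1*-driven tetracycline-controlled *MycN* and luciferase), 5 MERP tumours (*Atoh1-CreERT2;Ptch1* fl/fl), 4 tumours of germline Ptc+/- mice, granule neuron precursors (GNPs, 3 samples taken at postnatal day 4 to 7) and normal adult cerebellum (4 samples). All samples are labelled CD1, whereas the study's methods name Crl:CD1(ICR) for electroporated embryos and C57BL/6N for transfected mice. The sex, the batch and, beyond the words adult and postnatal day, the age of the samples are not given in the sources used here.

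In the MHC class I pathway, proteasomes cut cytosolic proteins into peptides, the TAP1-TAP2 transporter carries these into the endoplasmic reticulum, and tapasin (*Tapbp*) helps to load them on a heavy chain (*H2-D1*, *H2-K1*) bound to beta-2-microglobulin (*B2m*). *Psmb8* and *Psmb9* encode catalytic subunits that interferon-gamma places in the immunoproteasome in exchange for constitutive subunits. Class II molecules, of which *H2-Aa* encodes an alpha chain and *Cd74* the invariant chain that guides them to endosomes, are made mainly by professional antigen-presenting cells and, in the brain, by activated microglia and other macrophages. Neural cells are known for low MHC levels at rest. The arrays measured bulk tissue, so fewer cells of a type and less RNA per cell cannot be told apart.

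Of the 10 genes, 8 lie on mouse chromosome 17 (GRCm38.p6) within 1.35 Mb and *B2m* lies on chromosome 2. *Psmb9*, *Tap1*, *Psmb8* and *Tap2* follow each other within 34.3 kb, chr17:34182030-34216321. Promoter windows from RefSeq, 250 bases before to 50 after a gene's start, were matched for 8 members (9 windows). Windows of 6 of these genes are shown, read 5′ to 3′ on the gene's strand. Capitals mark matches, on either strand, to the X2 core TGACG, the Y box ATTGG, the interferon regulatory factor core AANNGAAA, the gamma-activated site TTCNNNGAA or the class I kappaB core GGGGATTCC.
B2m, chr2:122147437-122147736, plus strand: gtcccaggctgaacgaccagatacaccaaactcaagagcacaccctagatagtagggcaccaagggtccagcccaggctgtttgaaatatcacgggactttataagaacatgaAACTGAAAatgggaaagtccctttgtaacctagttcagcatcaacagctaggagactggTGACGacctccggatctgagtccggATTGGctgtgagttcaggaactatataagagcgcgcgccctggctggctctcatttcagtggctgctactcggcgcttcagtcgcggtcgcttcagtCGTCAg
H2-D1, chr17:35262844-35263143, plus strand: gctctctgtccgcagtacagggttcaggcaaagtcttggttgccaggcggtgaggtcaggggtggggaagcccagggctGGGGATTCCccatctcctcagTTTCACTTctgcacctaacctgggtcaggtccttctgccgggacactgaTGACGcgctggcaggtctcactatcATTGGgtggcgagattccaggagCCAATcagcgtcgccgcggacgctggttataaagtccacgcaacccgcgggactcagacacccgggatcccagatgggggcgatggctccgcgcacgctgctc
H2-K1, chr17:34000284-34000583, minus strand: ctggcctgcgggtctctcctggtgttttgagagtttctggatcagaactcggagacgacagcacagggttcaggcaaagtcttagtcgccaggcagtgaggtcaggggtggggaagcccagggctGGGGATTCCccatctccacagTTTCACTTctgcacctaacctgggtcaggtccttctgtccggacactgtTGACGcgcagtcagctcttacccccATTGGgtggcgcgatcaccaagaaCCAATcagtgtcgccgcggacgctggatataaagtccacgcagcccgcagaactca
H2-Aa, chr17:34287774-34288073, minus strand: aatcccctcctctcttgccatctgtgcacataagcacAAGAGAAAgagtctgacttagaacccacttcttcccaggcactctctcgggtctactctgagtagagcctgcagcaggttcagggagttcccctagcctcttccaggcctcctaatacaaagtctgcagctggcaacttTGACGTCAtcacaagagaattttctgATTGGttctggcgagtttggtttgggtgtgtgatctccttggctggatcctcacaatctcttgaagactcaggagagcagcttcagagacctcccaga
Tap1 (shared with Psmb9), chr17:34187306-34187605, plus strand: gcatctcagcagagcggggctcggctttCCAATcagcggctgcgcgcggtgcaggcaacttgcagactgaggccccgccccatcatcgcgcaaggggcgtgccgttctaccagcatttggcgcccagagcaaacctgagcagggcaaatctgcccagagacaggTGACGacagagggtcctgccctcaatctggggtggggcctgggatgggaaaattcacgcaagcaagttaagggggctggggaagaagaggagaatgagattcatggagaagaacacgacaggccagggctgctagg
Psmb8, chr17:34197945-34198244, plus strand: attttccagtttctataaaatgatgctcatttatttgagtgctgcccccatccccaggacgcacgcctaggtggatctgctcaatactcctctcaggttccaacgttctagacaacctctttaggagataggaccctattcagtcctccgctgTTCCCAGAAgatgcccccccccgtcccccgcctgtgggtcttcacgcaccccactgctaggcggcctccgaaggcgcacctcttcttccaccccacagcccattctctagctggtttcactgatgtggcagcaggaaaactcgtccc
In the windows of *B2m*, *H2-D1*, *H2-K1* and *H2-Aa* the X2 core was followed on the gene's strand by the Y box, with 20 bases between them in the class I genes and 21 in *H2-Aa*. Such a pair, whose spacing was read from these windows, occurred in 31 of 32817 promoter windows (0.0945%). The X2 core alone was in 20.8% of all windows and the Y box in 37.4%. The interferon regulatory factor core, found in 4 members, was in 23.9% of windows, the gamma-activated site, found in *Psmb8*, in 8.29%, and the kappaB core, found in *H2-D1* and *H2-K1*, in 0.25%. X2 and Y boxes are background knowledge for the promoters on which NLRC5 and CIITA, the regulators of class I and class II genes, assemble. The window printed for *Tap1* shares 275 bases with that of *Psmb9*, since the genes start 226 bases apart in opposite directions. In these windows, matches to the X2 core in *H2-Aa* overlap each other, and a match to letters is not a test of binding.

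Values are RMA levels on a log2 scale, on which a difference of 1 is a doubling, and levels of different probe sets cannot be compared. Array medians lay between 6.0 and 6.17, and near background means around or under the 25% quantile, which was 4.40 to 4.61. Each gene was represented by its probe set of highest mean level, and groups were compared by limma in 1 fit of all arrays with Benjamini-Hochberg adjustment over 18194 genes. *Ptch1* read 12.78 to 13.09 in CRISPR-Ptch1 tumours, 9.70 to 10.91 in GTML, 12.75 to 13.24 in MERP, 11.50 to 12.26 in Ptc+/-, 11.67 to 12.04 in GNPs and 11.88 to 12 in adult cerebellum. Its probe set need not cover the edited or deleted exons and so checks no label. The 3′ minus 5′ signal of actin and *Gapdh* control probe sets, a sign of RNA quality that is higher where RNA is shorter, was 0.19 to 0.23 in CRISPR-Ptch1 tumours, 1.10 to 1.28 in GTML, 0.40 to 1.71 in MERP, 0.99 to 1.53 in Ptc+/-, 0.31 to 0.53 in GNPs and 0.47 to 0.54 in adult cerebellum. It therefore moved with the groups, and its part in the differences below was not tested. The samples are not stated to come from separate animals, so p-values measure the spread between these arrays.

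*Psmb8*, the immunoproteasome subunit that replaces *Psmb5*, separated CRISPR-Ptch1 tumours from every other group. It read 7.79 and 8.02 in the EP tumours, 7.91 in the TF tumour, 7.18, 6.74, 6.98 and 7.56 in GTML, 6.98, 7.0, 6.81, 7.03 and 6.59 in MERP, 6.1, 6.26, 5.67 and 5.91 in Ptc+/-, 6.36, 6.25 and 6.39 in GNPs and 6.31, 6.28, 6.51 and 6.34 in adult cerebellum. The lowest CRISPR-Ptch1 tumour lay above the highest array of each other group. The difference was largest against Ptc+/-, at 7.91 ± 0.11 (SD, n = 3) in CRISPR-Ptch1 tumours and 5.99 ± 0.26 (SD, n = 4) in Ptc+/-, a log2 difference of 1.92 (SE 0.161, adjusted p = 1.69e-07, limma) or 3.78-fold. Against GTML it was 0.79 (SE 0.161, adjusted p = 0.000541), against MERP 1.02 (SE 0.154, adjusted p = 0.000298), against GNPs 1.57 (SE 0.172, adjusted p = 1.12e-06) and against adult cerebellum 1.54 (SE 0.161, adjusted p = 6.43e-08). These 5 calls held in each of the alternatives run for them. Among the other groups the order of means was GTML, MERP, adult cerebellum, GNPs and Ptc+/-, and of these neighbours only MERP and adult cerebellum differed by the test (log2 difference 0.52, SE 0.141, adjusted p = 0.00333). *Psmb8* was lower in Ptc+/- than in adult cerebellum by the main fit (log2 difference -0.38, SE 0.149, adjusted p = 0.0391), but this call was lost without Ptc+/- 3 or 4, without adult cerebellum 1, 3 or 4, and with arrays centred on the median of the genes (-0.06, adjusted p = 0.673).

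**Figure D1:**
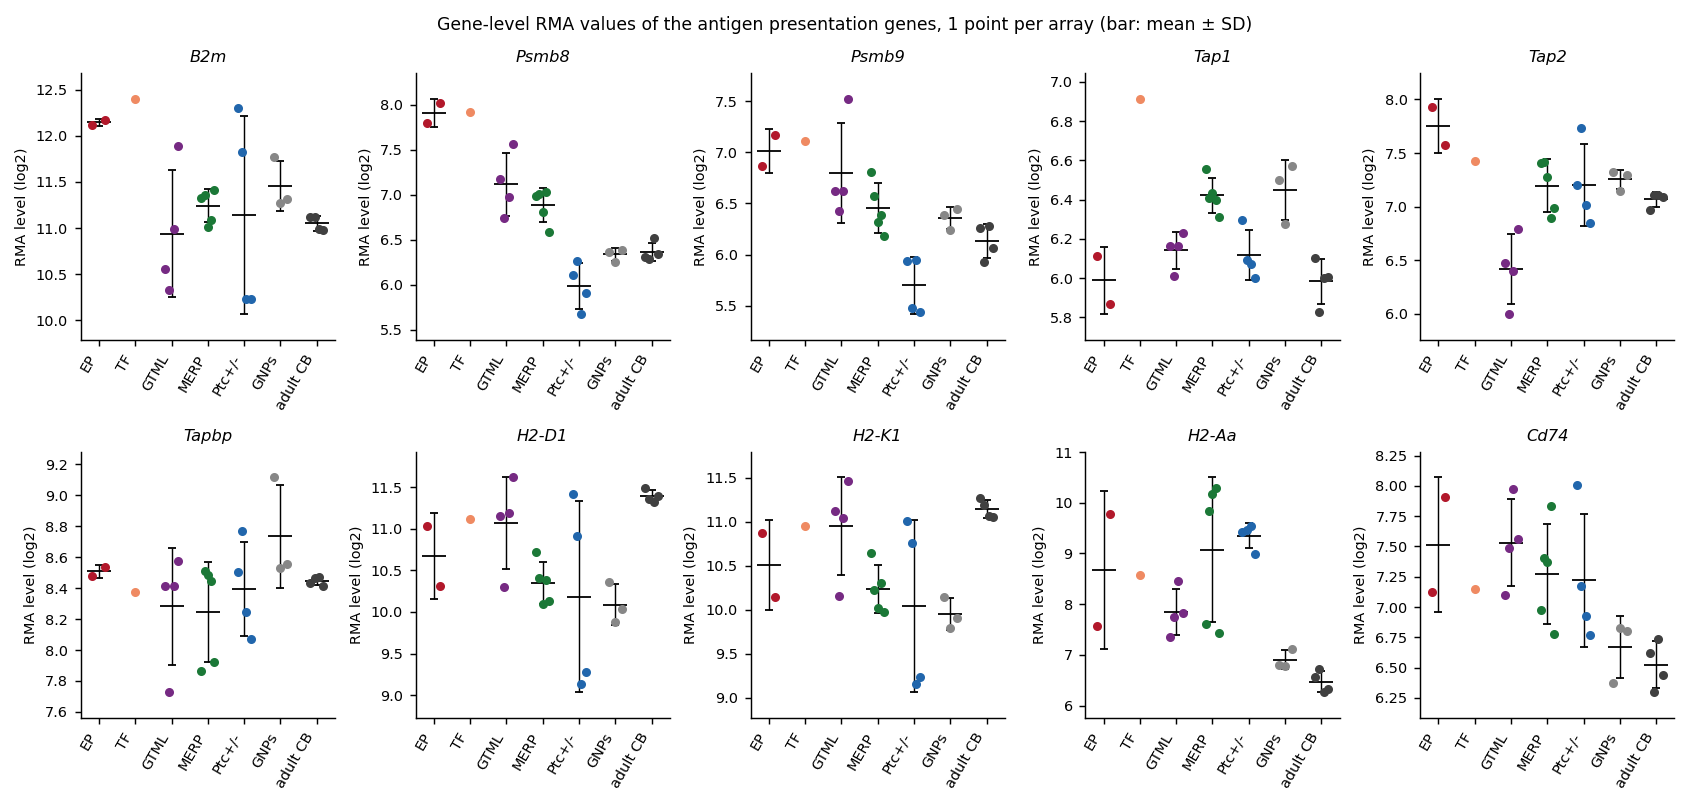
RMA level (log2, vertical axis) of each of the 10 genes by group; each point is 1 array, the horizontal bar is the group mean and the whisker 1 SD, with no bar for the single TF tumour. The 3 CRISPR-Ptch1 tumours (EP and TF) sit between 7.79 and 8.02 for *Psmb8*, above every other array, and Ptc+/- tumours split in *B2m*, *H2-D1* and *H2-K1*.

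*Psmb9*, which replaces *Psmb6* in the immunoproteasome, followed a like order at smaller size. Its level was 6.86 and 7.17 in the EP tumours, 7.10 in the TF tumour, 6.62, 6.42, 6.62 and 7.52 in GTML, 6.81, 6.57, 6.32, 6.39 and 6.18 in MERP, 5.94, 5.47, 5.94 and 5.44 in Ptc+/-, 6.39, 6.24 and 6.45 in GNPs and 6.26, 5.93, 6.28 and 6.07 in adult cerebellum. GTML 4 lay above all 3 CRISPR-Ptch1 tumours, and Ptc+/- held the lowest readings. CRISPR-Ptch1 tumours were higher than Ptc+/- by 1.34 (SE 0.206, adjusted p = 4.59e-05) and than adult cerebellum by 0.91 (SE 0.206, adjusted p = 0.000884). The difference from GNPs was 0.69 (SE 0.221, adjusted p = 0.0419) and the call was lost on leaving out any 1 of the CRISPR-Ptch1 or GNP arrays (adjusted p between 0.0548 and 0.134). Against MERP it was 0.59 (95% confidence interval 0.18 to 1.0, adjusted p = 0.0522) and against GTML 0.25 (-0.18 to 0.68, adjusted p = 0.378), neither passing the test. Both immunoproteasome genes were higher in GTML than in Ptc+/-, by 1.13 for *Psmb8* (adjusted p = 2.75e-06) and 1.10 for *Psmb9* (adjusted p = 7.33e-05). Across the 23 arrays *Psmb8* and *Psmb9* had a Pearson r of 0.868, and an r of 0.589 about the group means. Of the constitutive catalytic subunits *Psmb5*, *Psmb6* and *Psmb7*, 0 of 3 passed the test in CRISPR-Ptch1 tumours against GTML, MERP or GNPs, 1 was higher against adult cerebellum (*Psmb6*, 0.48, adjusted p = 0.0106) and 3 were higher against Ptc+/-, with *Psmb7* at 1.96 (adjusted p = 0.000578).

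The TAP transporter genes differed in other places. *Tap2* read 7.93 and 7.57 in the EP tumours, 7.42 in the TF tumour, 6.47, 6.0, 6.40 and 6.79 in GTML, 7.41, 7.42, 7.28, 6.89 and 6.99 in MERP, 7.20, 7.73, 7.02 and 6.85 in Ptc+/-, 7.32, 7.15 and 7.29 in GNPs and 6.97, 7.11, 7.11 and 7.09 in adult cerebellum. Each GTML tumour lay below every array of the other groups. CRISPR-Ptch1 tumours were higher than GTML by 1.22 (SE 0.193, adjusted p = 3.78e-05), and GTML was lower than adult cerebellum by the test (log2 difference -0.65, SE 0.179, adjusted p = 0.00359), as it was against MERP, Ptc+/- and GNPs (-0.78, -0.78 and -0.84, adjusted p 0.000849, 0.00112 and 0.0014). The difference of CRISPR-Ptch1 tumours from adult cerebellum, 0.57 (SE 0.193, adjusted p = 0.0184), did not pass without EP 1 (adjusted p = 0.121). The other groups' neighbours in the order of *Tap2* means did not differ beyond their spread.

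*Tap1* read 6.11 and 5.87 in the EP tumours and 6.91 in the TF tumour, with 6.16, 6.01, 6.16 and 6.23 in GTML, 6.55, 6.41, 6.44, 6.40 and 6.31 in MERP, 6.30, 6.09, 6.07 and 6.0 in Ptc+/-, 6.50, 6.28 and 6.57 in GNPs and 6.1, 5.83, 6.0 and 6.0 in adult cerebellum. The other *Tap1* probe set above background, 1448177_at, read 5.255 and 5.228 in the EP tumours and 5.226 in the TF tumour. By the probe set used here, 1416016_at, the TF tumour held the highest reading of all arrays. EP 2 held the lowest by it but for adult cerebellum 2. The log2 difference of EP minus TF was -0.93. A fit with EP and TF as groups of their own, added because these values were seen to differ, called 1 of the 10 genes, *Tap1*, and 2.49% of all genes. It has 1 TF array, whose spread is taken from other groups, so it is a description and not a replicated test. Pooled, *Tap1* did not pass the test in CRISPR-Ptch1 tumours against any group, with differences between -0.15 against GNPs and 0.31 against adult cerebellum (95% confidence interval -0.03 to 0.65). It was higher in MERP than in adult cerebellum by 0.44 (SE 0.144, adjusted p = 0.0128), and in GNPs by 0.47 (SE 0.163, adjusted p = 0.0216). The call in GNPs was lost without GNPs 1 or 3 or adult cerebellum 2. Centring arrays on the median of the genes also lost it (0.235, adjusted p = 0.261). Averaged over the *Tap1* probe sets, 2 of them near background, neither difference was called. They were 0.148 in MERP (adjusted p = 0.127) and 0.037 in GNPs (adjusted p = 0.783). By 1448177_at alone they were 0.088 in MERP (adjusted p = 0.699) and -0.186 in GNPs (adjusted p = 0.477). Although *Tap1* and *Psmb9* are read outward from 1 promoter, their levels had an r of 0.334 over 23 arrays. *Tapbp* lay between 7.73 in GTML 2 and 9.12 in GNPs 1, the CRISPR-Ptch1 range overlapped that of each other group, and it was called in none of the 15 comparisons fitted; against adult cerebellum its difference in CRISPR-Ptch1 tumours was 0.02 (95% confidence interval -0.41 to 0.45).

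*B2m*, the light chain that every classical class I molecule needs, was 12.12 and 12.18 in the EP tumours and 12.40 in the TF tumour. It was 10.55, 10.32, 11.00 and 11.89 in GTML, 11.32, 11.36, 11.01, 11.09 and 11.42 in MERP, 12.30, 11.82, 10.23 and 10.23 in Ptc+/-, 11.77, 11.27 and 11.32 in GNPs and 11.12, 11.12, 10.99 and 10.98 in adult cerebellum. CRISPR-Ptch1 tumours were uniformly high, whereas the Ptc+/- tumours fell into a high and a low pair, and only Ptc+/- 1 overlapped the CRISPR-Ptch1 range. The 3′ minus 5′ signal was 0.99 and 1.13 in Ptc+/- 1 and 2, and 1.25 and 1.53 in Ptc+/- 3 and 4. *Psmb7* fell in the same order, at 8.96, 7.82, 7.0 and 6.87 in Ptc+/- 1, 2, 3 and 4. The part of RNA quality in this split was not tested. The difference of CRISPR-Ptch1 tumours was 1.29 against GTML (SE 0.391, adjusted p = 0.0127, 2.45-fold), 1.18 against adult cerebellum (SE 0.391, adjusted p = 0.0162) and 1.09 against Ptc+/- (SE 0.391, adjusted p = 0.0333). The call against Ptc+/- was lost without any 1 CRISPR-Ptch1 tumour or without Ptc+/- 3 or 4 (adjusted p between 0.0631 and 0.13), and that against adult cerebellum without the TF tumour (adjusted p = 0.0564). With arrays centred on the median of the genes the difference from Ptc+/- was 0.61 (adjusted p = 0.123). Fitting only the groups compared also lost this call (adjusted p = 0.157). Against MERP, where no values overlapped, the difference was 0.99 (95% confidence interval 0.21 to 1.77, adjusted p = 0.0829), and against GNPs 0.78 (-0.09 to 1.65, adjusted p = 0.26). These intervals use the spread of all groups, and the SD was 1.075 in Ptc+/- and 0.692 in GTML. It was 0.148 in CRISPR-Ptch1 tumours and 0.179 in MERP. The other *B2m* probe set, 1452428_a_at, had an r of 0.953 with the one used here over 23 arrays. By it the differences of CRISPR-Ptch1 tumours were 1.79 against GTML (adjusted p = 0.0044) and 1.54 against Ptc+/- (adjusted p = 0.0109), that from adult cerebellum did not pass (1.04, adjusted p = 0.0753), and MERP and Ptc+/- lay below adult cerebellum in the order of means rather than above it. Below CRISPR-Ptch1 tumours, no neighbouring groups in the order GNPs, MERP, Ptc+/-, adult cerebellum, GTML differed by the test.

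**Figure D2:**
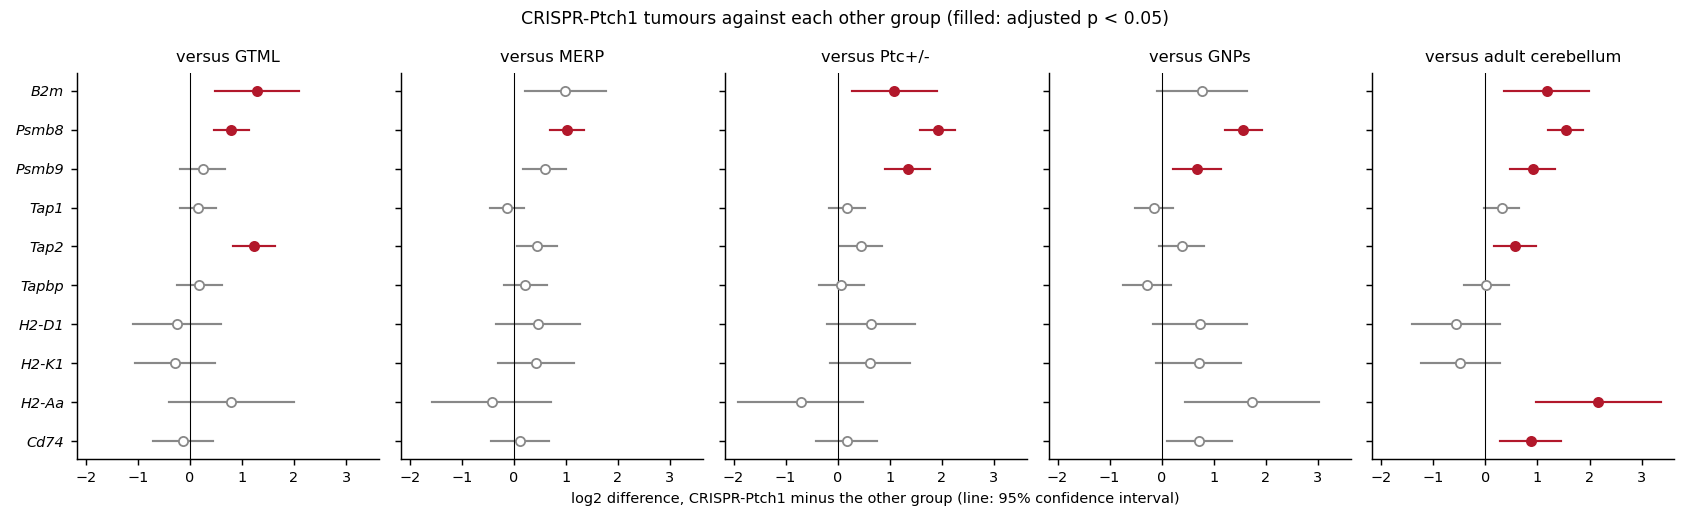
Log2 difference (horizontal axis) of the 3 CRISPR-Ptch1 tumours minus each other group for the 10 genes; points are the limma estimates, lines their 95% confidence intervals, and filled points passed an adjusted p under 0.05. *Psmb8* passed in all 5 panels, and *H2-D1* and *H2-K1* in none.

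By its brightest probe set (1425545_x_at) *H2-D1* read 11.04 and 10.31 in the EP tumours, 11.12 in the TF tumour, 11.16, 10.30, 11.20 and 11.62 in GTML, 10.73, 10.40, 10.10, 10.39 and 10.13 in MERP, 11.42, 10.92, 9.13 and 9.28 in Ptc+/-, 10.36, 9.88 and 10.03 in GNPs and 11.49, 11.36, 11.33 and 11.40 in adult cerebellum. Adult cerebellum was uniformly high, and Ptc+/- 3 and 4, low in *B2m*, were again low. *H2-D1* was lower than adult cerebellum in MERP by the test (log2 difference -1.05, SE 0.357, adjusted p = 0.0163), in Ptc+/- (-1.21, SE 0.376, adjusted p = 0.00931) and in GNPs (-1.31, SE 0.406, adjusted p = 0.0101). In Ptc+/- the call was lost without Ptc+/- 3 (adjusted p = 0.053) or 4 (adjusted p = 0.0501). By the *H2-D1* probe set with the highest SD, none of the 3 was called. The differences were then -0.256 in MERP (adjusted p = 0.635), -0.035 in Ptc+/- (adjusted p = 0.959) and -0.397 in GNPs (adjusted p = 0.538). The calls in MERP and GNPs held in every other alternative run for them. In CRISPR-Ptch1 tumours the difference from adult cerebellum was -0.57 (95% confidence interval -1.42 to 0.27, adjusted p = 0.269). *H2-K1* by its brightest probe set (1451931_x_at) differed from adult cerebellum by -0.91 in MERP (adjusted p = 0.0205), -1.10 in Ptc+/- (adjusted p = 0.00871) and -1.19 in GNPs (adjusted p = 0.00915). However, this probe set and 1425545_x_at had an r of 0.993 over 23 arrays, which is above that of the *H2-K1* probe sets 1425336_x_at and 1427746_x_at with each other (0.905). Probe sets with the suffix _x_at hold probes that can bind related transcripts, and heavy chain genes are near-identical over long stretches, so *H2-D1* and *H2-K1* are not told apart by these 2 probe sets. Averaged over the *H2-K1* probe sets, none of the 3 differences of *H2-K1* from adult cerebellum was called. They were -0.08 in MERP (adjusted p = 0.801), -0.24 in Ptc+/- (adjusted p = 0.434) and -0.53 in GNPs (adjusted p = 0.095).

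Other probe sets of the heavy chains gave different patterns. Of the 9 *H2-D1* probe sets, 3 were high in both EP tumours and in no other array. Probe set 1452544_x_at read 9.10 and 9.41 in the EP tumours, against 6.03 in the TF tumour, 6.63 to 6.87 in GTML, 5.24 to 5.87 in MERP, 5.44 to 6.23 in Ptc+/-, 5.32 to 5.72 in GNPs and 5.76 to 6.1 in adult cerebellum. Probe set 1427651_x_at read 8.48 and 8.69 in the EP tumours and 5.46 in the TF tumour, and 1425614_x_at 8.69 and 8.80 in the EP tumours and 5.43 in the TF tumour. No array of another group exceeded 6.02 in 1427651_x_at or 5.76 in 1425614_x_at. EP minus TF was 3.23, 3.12 and 3.31, and EP minus adult cerebellum 3.32, 3.15 and 3.42, in the order 1452544_x_at, 1427651_x_at and 1425614_x_at. The same added fit, on all single-gene probe sets, called 4 of the members' 30 between EP and TF, 3 higher and 1 lower in EP, and 1.95% of all probe sets; with 1 TF array this too is a description. By the brightest probe set, 1425545_x_at, the EP tumours read 11.04 and 10.31, below each adult cerebellum. A further probe set, 1451934_at, read 7.03 in EP 2 but 4.12 in EP 1, where the other arrays lay between 3.73 and 4.63. The *H2-K1* probe set 1425336_x_at read 10.30 and 10.40 in the EP tumours, 10.29 in the TF tumour, 9.46 to 11.11 in GTML and 9.34 to 9.50 in adult cerebellum, and differed from adult cerebellum by 0.92 in CRISPR-Ptch1 tumours (adjusted p = 0.0257) and 0.94 in GTML (adjusted p = 0.0121), opposite in sign to 1451931_x_at. By 1425336_x_at the means were 9.38 in MERP, 9.41 in Ptc+/- and 8.72 in GNPs, against 9.41 in adult cerebellum. Heavy chain genes differ in sequence between mouse strains, and the methods give different strains for the EP and TF tumours, which also differ in *Trp53* genotype and in how and when Cas9 was delivered; these cannot be told apart.

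**Figure D3:**
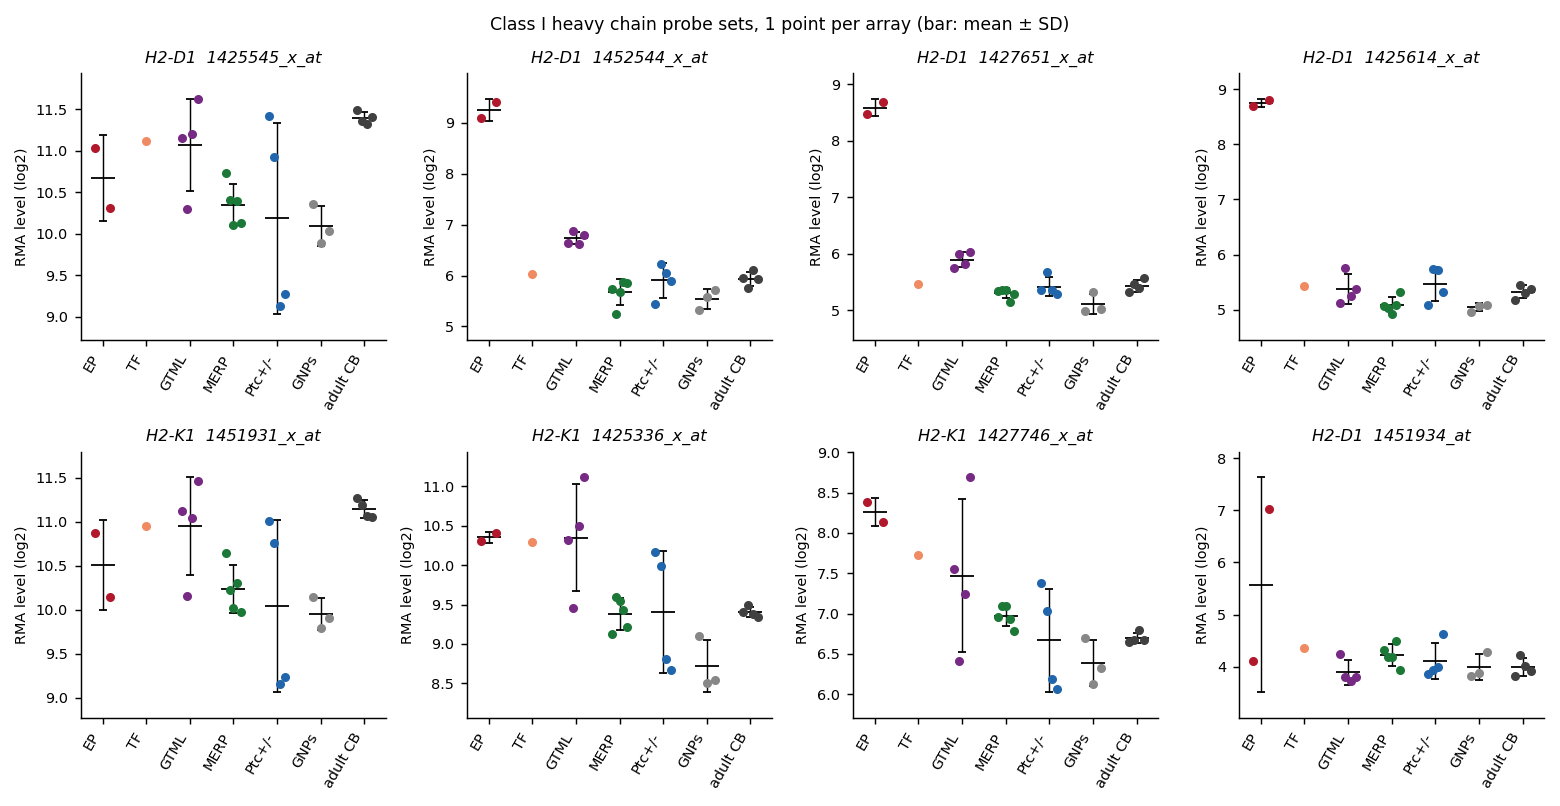
RMA level (log2, vertical axis) of 8 heavy chain probe sets by group, 1 point per array with the group mean and SD. In 1452544_x_at, 1427651_x_at and 1425614_x_at both EP tumours lie at 8.48 or above and all other arrays at 6.87 or below, a pattern that 1425545_x_at and 1451931_x_at do not show.

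*H2-Aa* and *Cd74* were higher in each of the tumour models than in adult cerebellum. *H2-Aa* (1435290_x_at) read 7.57 and 9.78 in the EP tumours, 8.58 in the TF tumour, 7.35, 7.74, 8.46 and 7.83 in GTML, 7.62, 9.84, 10.18, 10.30 and 7.43 in MERP, 9.43, 9.46, 9.53 and 8.99 in Ptc+/-, 6.81, 6.78 and 7.12 in GNPs and 6.57, 6.73, 6.28 and 6.33 in adult cerebellum. All tumours lay above all GNP and adult cerebellum arrays, EP 2 exceeded EP 1 by over 2 on the log2 scale, and MERP 1 and 5 stood apart from the other MERP tumours. The difference from adult cerebellum was 2.17 in CRISPR-Ptch1 tumours (SE 0.576, adjusted p = 0.00348, 4.49-fold), 1.37 in GTML (SE 0.534, adjusted p = 0.0342), 2.60 in MERP (SE 0.506, adjusted p = 0.000143) and 2.88 in Ptc+/- (SE 0.534, adjusted p = 8.64e-05). In GTML the call was lost without GTML 2, 3 or 4 or without adult cerebellum 1, 3 or 4 (adjusted p between 0.0513 and 0.0985). Against GNPs the difference in CRISPR-Ptch1 tumours was 1.74 (95% confidence interval 0.46 to 3.02, adjusted p = 0.0669). No neighbours in the order Ptc+/-, MERP, CRISPR-Ptch1, GTML, GNPs, adult cerebellum differed by the test.

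The probe sets of *H2-Aa* ranked the models differently. Probe set 1438858_x_at followed the brightest one (r = 0.971), but 1452431_s_at read 6.58, 7.27, 9.03 and 8.05 in GTML and 7.45, 6.54, 5.98 and 5.87 in Ptc+/-, and its highest difference from adult cerebellum was in GTML (2.88, SE 0.542, adjusted p = 0.000111, against 1.61 in Ptc+/-, adjusted p = 0.0161). By 1435290_x_at GTML was lower than Ptc+/- (log2 difference -1.51, adjusted p = 0.0265), a call lost without GTML 1 or 2 or Ptc+/- 2 or 3, whereas by 1452431_s_at the difference was 1.27 (adjusted p = 0.0669). *Cd74* has 1 probe set, which read 7.12 and 7.91 in the EP tumours, 7.15 in the TF tumour, 7.10, 7.48, 7.98 and 7.56 in GTML, 6.97, 7.40, 7.37, 7.83 and 6.78 in MERP, 8.0, 7.18, 6.93 and 6.77 in Ptc+/-, 6.37, 6.83 and 6.80 in GNPs and 6.62, 6.30, 6.74 and 6.44 in adult cerebellum. EP 2 was again above EP 1, and the tumour models overlapped each other. *Cd74* was higher than adult cerebellum by 0.87 in CRISPR-Ptch1 tumours (SE 0.279, adjusted p = 0.0135), 1.0 in GTML (SE 0.259, adjusted p = 0.00218), 0.75 in MERP (SE 0.245, adjusted p = 0.0129) and 0.69 in Ptc+/- (SE 0.259, adjusted p = 0.0278). The first was lost without EP 2 (adjusted p = 0.109) and the last without Ptc+/- 1 (adjusted p = 0.141), adult cerebellum 2 (0.0774) or adult cerebellum 4 (0.0598).

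**Figure D4:**
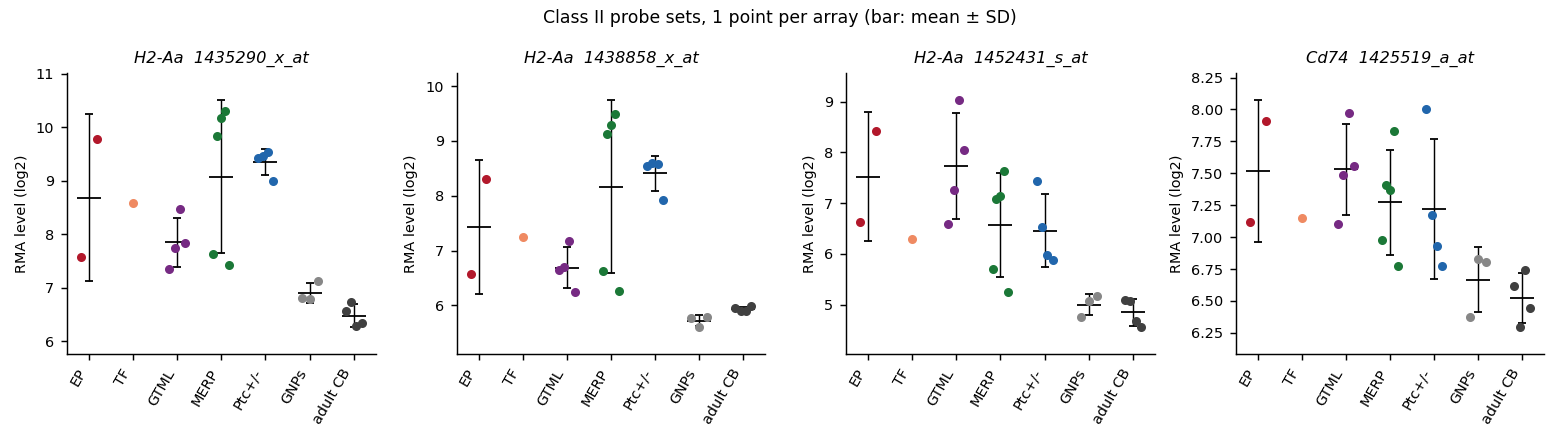
RMA level (log2, vertical axis) of 3 *H2-Aa* probe sets and the *Cd74* probe set by group, 1 point per array with the group mean and SD. MERP 2, 3 and 4 lie at 9.84 to 10.30 and MERP 1 and 5 at 7.62 and 7.43 in 1435290_x_at, and GTML stands higher relative to Ptc+/- in 1452431_s_at.

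Counted over the 10 genes, CRISPR-Ptch1 tumours had 3 higher, 0 lower and 7 not called against GTML, where 22.7% of all genes were higher and 14.1% lower. Against MERP 1 was higher and 0 lower (8.20% and 5.15% of all genes), against Ptc+/- 3 and 0 (28.5% and 8.33%), against GNPs 2 and 0 (5.79% and 7.95%), and against adult cerebellum 6 and 0 (26.4% and 21.1%). The members' median log2 difference was 0.21 against GTML, 0.43 against MERP, 0.53 against Ptc+/-, 0.72 against GNPs and 0.72 against adult cerebellum, beside 0.01, -0.02, 0.12, 0.00 and 0.02 over all genes. Of the 50 values in these comparisons 15 were called, all higher in CRISPR-Ptch1 tumours, and 5 of the 15 were *Psmb8*. Set against adult cerebellum, GTML had 4 members higher and 1 lower (27.3% and 27.9% of all genes), MERP 4 and 2 (30.8% and 24.9%), Ptc+/- 2 and 3 (22.4% and 30.8%) and GNPs 1 and 2 (29.1% and 21%). In MERP and GNPs the 2 lower members, and 2 of the 3 in Ptc+/-, were *H2-D1* and *H2-K1*, whose brightest probe sets are not told apart and so may count 1 signal in both. Except for CRISPR-Ptch1 tumours against adult cerebellum and, by 2 genes, against GNPs, the members' shares in CRISPR-Ptch1 tumours lie near those of all genes. These comparisons share the CRISPR-Ptch1 or the adult cerebellum arrays. The split of calls over all genes moved with scaling: with arrays centred on the median of the genes, which shifted differences by up to 0.48 against Ptc+/-, the higher share of calls was 22% in place of 61.7% against GTML, 23% in place of 61.4% against MERP, 20.7% in place of 77.4% against Ptc+/- and 43.2% in place of 55.6% against adult cerebellum. Against adult cerebellum it was 62.9% in place of 49.4% for GTML, 64.2% in place of 42% for Ptc+/- and 41.8% in place of 58.1% for GNPs. With the same centring, 4 members were higher and 2 lower in Ptc+/- than in adult cerebellum, and 0 and 2 in GNPs.

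The rest of the pathway was read from lists, whose counts stand beside the shares of all genes given above for each comparison (for genes higher in CRISPR-Ptch1 tumours, 22.7% against GTML, 8.20% against MERP, 28.5% against Ptc+/-, 5.79% against GNPs and 26.4% against adult cerebellum). Among 12 measured class II genes besides *H2-Aa* and *Cd74*, 6 rose and 0 fell in CRISPR-Ptch1 tumours against adult cerebellum (median log2 difference 0.84), among them *H2-Eb1* (1.74, adjusted p = 0.00471), *Ctss*, the cathepsin that trims the invariant chain (1.70, adjusted p = 0.000627), *H2-Ab1* (1.68, adjusted p = 0.00742) and *Ifi30* (1.5, adjusted p = 1.3e-07). Of the same 12 genes, 2 were higher and 2 lower against GTML (median -0.07), 0 passed against MERP, 1 was higher against Ptc+/- and 2 against GNPs. Set against adult cerebellum, 5 were higher and 0 lower in GTML, 3 and 1 in MERP and 4 and 1 in Ptc+/-. *H2-Eb1*, a class II beta chain, read 7.0 and 8.43 in the EP tumours, 7.30 in the TF tumour and 5.07 to 5.74 in GTML, where CRISPR-Ptch1 tumours were higher by 2.25 (adjusted p = 0.000911), while *Ifi30* was lower in them than in GTML (-0.62, adjusted p = 0.00522). Of 9 other class I genes measured, 4 were higher and 0 lower against GTML, led by *Mr1* (3.54, adjusted p = 5.13e-06) and *Cd1d1* (2.04, adjusted p = 5.87e-06), which present metabolites and lipids. Against MERP 0 were higher and 1 lower, against Ptc+/- 2 and 1, against GNPs 2 and 0 and against adult cerebellum 2 and 1 (median -0.02). *Cd1d1* was lower in CRISPR-Ptch1 tumours than in MERP (log2 difference -1.23, adjusted p = 0.00421) and Ptc+/- (-1.24, adjusted p = 0.00131) and higher than in adult cerebellum (4.88, adjusted p = 3.93e-12). Of 10 genes of class I loading and peptide supply, 5 rose and 0 fell against Ptc+/- and 0 of 10 passed against GNPs.

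Among 16 regulators, *Nlrc5* read 5.05 and 5.20 in the EP tumours, 6.15 in the TF tumour and 4.47 to 4.56 in adult cerebellum, a difference of 0.94 (SE 0.323, adjusted p = 0.0197), with GTML 4 at 6.13. *Ciita* lay between 5.13 and 5.83 in all arrays and did not pass in CRISPR-Ptch1 tumours against any group. Against adult cerebellum it was higher in MERP (0.36, adjusted p = 0.00376) and GTML (0.25, adjusted p = 0.0487), and not called in Ptc+/- or GNPs. *Irf1*, an interferon-induced activator of class I genes, differed in CRISPR-Ptch1 tumours from adult cerebellum by 0.79 (adjusted p = 0.000109) and from Ptc+/- by 0.53 (adjusted p = 0.00669). Against GTML, MERP and GNPs its differences, 0.111, 0.02 and 0.171, were not called. *Irf1* was also higher than adult cerebellum in GTML (0.674, adjusted p = 0.000187), MERP (0.765, adjusted p = 2.27e-05) and GNPs (0.615, adjusted p = 0.00114). In Ptc+/- it was not called (0.258, adjusted p = 0.116). In all, 8 of 16 regulators rose and 0 fell against GTML, 1 and 0 against MERP, 7 and 0 against Ptc+/-, 2 and 0 against GNPs and 7 and 1 against adult cerebellum, and the count against MERP is below the share of all genes. Of 24 interferon-stimulated genes outside antigen presentation, 6, 3, 9, 4 and 9 rose in CRISPR-Ptch1 tumours against GTML, MERP, Ptc+/-, GNPs and adult cerebellum, and 0, 0, 0, 1 and 2 fell. Against GTML, MERP and Ptc+/- these counts lie near the shares of all genes. The chemokine gene *Cxcl10* read 8.82 and 9.38 in the EP tumours, 8.45 in the TF tumour and 4.79 to 5.13 in adult cerebellum (log2 difference 3.88, adjusted p = 1.41e-06), and it was higher than in each other group. The mean level of this list was 6.65 and 6.77 in the EP tumours but 8.23 in the TF tumour, and 7.74 in GTML 4 against 5.64 in GTML 2.

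**Figure D5:**
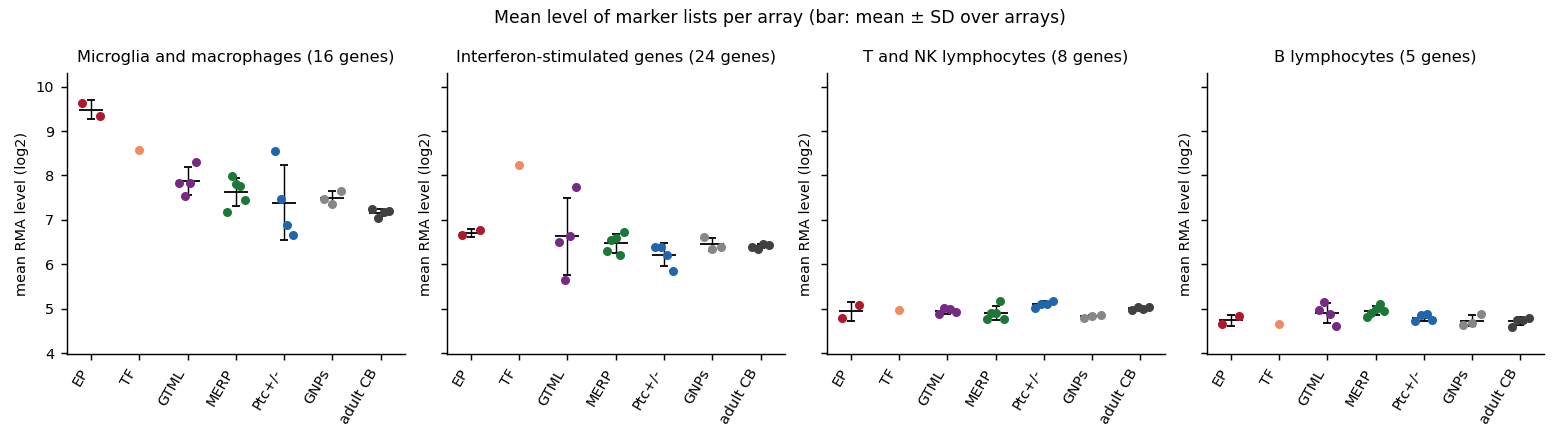
Mean RMA level (log2, vertical axis, shared by the panels) of 4 gene lists by group, 1 point per array with the group mean and SD. For microglia and macrophages the EP tumours lie at 9.63 and 9.34 and the TF tumour at 8.57, and the lymphocyte lists stay between 4.59 and 5.18 in every array.

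Microglia and macrophage markers were high in the CRISPR-Ptch1 tumours, but they did not follow *H2-Aa* in every group. Of 16 microglia and macrophage markers, 11 rose and 0 fell in CRISPR-Ptch1 tumours against GTML, 13 and 0 against MERP, 15 and 0 against Ptc+/-, 12 and 0 against GNPs and 13 and 0 against adult cerebellum, with median log2 differences of 1.21, 1.61, 1.65, 1.68 and 2.33. Their mean level was 8.57 to 9.63 in CRISPR-Ptch1 tumours, 7.53 to 8.30 in GTML, 7.18 to 7.98 in MERP, 6.65 to 8.55 in Ptc+/-, 7.36 to 7.66 in GNPs and 7.05 to 7.24 in adult cerebellum. Of the 16, 1 was near background in the TF tumour, GTML, MERP, Ptc+/-, GNPs and adult cerebellum, and 0 in the EP tumours. *Aif1*, which encodes the microglial protein Iba1, was higher than adult cerebellum by 3.52 in CRISPR-Ptch1 tumours (adjusted p = 4.65e-09). Within Ptc+/- the list stood at 8.55 and 7.47 in tumours 1 and 2 and 6.88 and 6.65 in tumours 3 and 4. Its high pair was that of *B2m*, and that of the lower 3′ minus 5′ signal. Within MERP it stood at 7.98, 7.80 and 7.76 in tumours 2, 3 and 4, the high ones for *H2-Aa*, and 7.18 and 7.45 in tumours 1 and 5. By its brightest probe set, 1435290_x_at, *H2-Aa* did not follow the list in Ptc+/-. Tumours 3 and 4, lowest of all arrays in the list, read 9.53 and 8.99 by it. By 1452431_s_at, however, Ptc+/- 1, 2, 3 and 4 read 7.45, 6.54, 5.98 and 5.87, falling with the list, as *Cd74* did. EP 2, lower than EP 1 in the list, read 9.78 against 7.57 in EP 1 by 1435290_x_at. By 1452431_s_at EP 2 read 8.425 against 6.627 in EP 1. Lymphocyte markers stayed low: the mean of 8 T and NK markers was 4.76 to 5.18 and that of 5 B cell markers 4.59 to 5.15 over all arrays, with 0 of the T and NK list rising in CRISPR-Ptch1 tumours against any group. Of 6 dendritic cell markers, 1 rose in CRISPR-Ptch1 tumours against each other group and 2 fell against adult cerebellum, *Flt3* and *Zbtb46* (log2 differences -2.94 and -2.17, adjusted p 1.5e-12 and 0.000178). Other tissue markers differed too. The mean of 4 markers of mature granule neurons was 9.97, 11.45 and 8.76 in EP 1, EP 2 and TF 1, against 6.86 to 7.86 in the other tumours, and 3 of the 4 passed the test as higher against each other tumour model. Of 6 astrocyte markers 5, 2 and 3 were higher than in GTML, MERP and Ptc+/-, and of 4 oligodendrocyte markers 0, 3 and 2. The mean of 10 endothelial and pericyte markers was 9.84 to 10.47 in GNPs and 6.58 to 8.55 in all other arrays. The part of such cells in the levels of the 10 genes was not tested.

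By pattern over the 23 arrays, the genes outside the list most like *Cd74* were *Lyz2* (r = 0.854), *Lyz1* (0.83), *Cybb* (0.83), *Itgax* (0.825) and *H2-Ab1* (0.799), and *H2-Ab1* led for *H2-Aa* (0.912), followed by *Gtf3c1* (0.875), *Ptov1* (0.857), *Zfp282* (0.846) and *Lrfn4* (0.84). For *B2m* they were *Ctsh* (0.848), *Otulinl* (0.825), *Sertad2* (0.815), *Lgals3bp* (0.811) and *Tmem179b* (0.801), and for *Tap1* *Pou2af1* (0.824), *Ddit4* (0.817), *Parp9* (0.794), *Mettl23* (0.79) and *Recql* (0.785). These are descriptions over arrays that share groups. About the group means, r of *Tap1* with *Pou2af1* was -0.337 and that of *Cd74* with *Lyz2* 0.785. Pooled over groups, the residuals of *B2m* and *H2-D1* had an r of 0.902, against 0.427 over all arrays. For *H2-Aa* and *Cd74* these were 0.671 and 0.703, and for *B2m* and *H2-Aa* -0.01 and 0.10. Ptc+/- had the widest spread in *B2m* (SD 1.075) and *H2-D1* (SD 1.152) and so weighs most in the first r. *B2m* and *H2-D1* did not move together in every group. EP 2 lay above EP 1 in *B2m* (12.18 and 12.12) but below it in *H2-D1* (10.31 and 11.04).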

How the data were processed

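RNA was hybridised to 23 Affymetrix whole-genome mouse arrays. Per the labels, the authors deposited log2 values made by robust multi-array averaging (RMA) with Affymetrix Expression Console 1.3.1; which arrays were normalized together is not given in the sources used here. No value was missing and no column was left unused. Of 45101 probe sets, 34958 name 1 gene in the platform annotation (34754 updated through the Entrez identifier), 932 several and 9211 none, and only the first were used. For each gene the probe set of highest mean level was taken. A model with 6 groups was fitted to all arrays with limma 3.58.1 in R 4.3.3, with Benjamini-Hochberg adjustment over 18194 genes and a threshold of 0.05; 15 comparisons were fitted and 9 are counted. Tables and figures were made with Python 3.11.15, pandas 2.3.3, numpy 2.4.6, scipy 1.17.1 and matplotlib 3.10.9, and the fit was tested on simulated data. The genes named are all 10 members, the called genes of largest difference in each list and the 5 genes most like a member by Pearson r. The members and lists were chosen with earlier results of these data known. Alternatives changed the scaling, the choice of probe set, a filter on dim genes, the variance model, the samples in the fit and 1 array at a time. The number of arrays limits the precision. The study describes more arrayed CRISPR-Ptch1 tumours than have values here; the others were not analysed here.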

Additional observations from a re-analysis of the deposited data

Results flagged for a closer look

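In 4 probe sets of the members the 2 EP arrays stood apart from the single TF array, in a comparison made because the values were seen to differ. For *H2-D1*, EP minus TF was 3.313 in 1425614_x_at, 3.125 in 1427651_x_at and 3.227 in 1452544_x_at. For *Tap1* it was -0.925 in 1416016_at, whereas 1448177_at read 5.255 and 5.228 in EP and 5.226 in TF. With 1 TF array these are values of those arrays, not a replicated difference between EP and TF tumours. Dixon's test, run 60 times over groups of 4 or 5 arrays, named no array. It did not cover EP, TF or GNPs or every probe set, and it cannot see a pair that stands apart, such as MERP 1 and 5 in *H2-Aa*.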

How the results depend on the processing

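Counts of called members are given in the order CRISPR-Ptch1 against GTML, MERP, Ptc+/-, GNPs and adult cerebellum, then GTML, MERP, Ptc+/- and GNPs against adult cerebellum; the main counts were 3, 1, 3, 2 and 6, then 5, 6, 5 and 3. Centring each array on its overall median, or quantile normalization, left 1 called against GNPs and gave 6 for Ptc+/- against adult cerebellum. The former also gave 4 for CRISPR-Ptch1 tumours against Ptc+/-. Leaving out dim genes (7.311 as the minimum, 8 of 10 members kept) removed *Psmb9* and *Tap1*, so their calls could not be made. With that filter the counts were 3, 1, 2, 1 and 5, then 4, 5, 5 and 2. Centring on the median of the genes gave 2 for CRISPR-Ptch1 tumours against Ptc+/-. By it Ptc+/- had 6 and GNPs 2 against adult cerebellum, and the other counts stayed. Averaging a gene's probe sets and taking the most variable one (highest SD) each gave 4, 3, 5, 4 and 7, then 5, 4, 3 and 1 calls, but not in the same directions: against adult cerebellum MERP had 3 higher and 1 lower by the mean and 4 and 0 by the highest SD, and GNPs 0 and 1 by the mean and 1 and 0 by the highest SD. Array weights, whose fit did not converge, gave 8 against MERP (2 lower), 7 against Ptc+/- (1 lower), 9 against GNPs (1 lower) and 7 against adult cerebellum (1 lower). Fitting only the groups compared gave 2 against MERP and 5 for GNPs against adult cerebellum. The EP tumours alone gave 2 against MERP and 2 against GNPs, of which 1 each, *Tap1*, was lower (-0.433 and -0.461), and the TF tumour alone 1 against GNPs and 3 against adult cerebellum. Leaving out 1 array gave 3 to 4, 1 to 2, 2 to 5, 1 to 2 and 5 to 6, then 4 to 5, 6, 3 to 5 and 2 to 3.

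Signs turned with the probe set. *H2-D1* in CRISPR-Ptch1 tumours was 0.652 against GTML and 0.67 against adult cerebellum by the mean of its probe sets, and 1.441 and 2.24 by that with the highest SD. *H2-K1* by the highest SD was 1.383 in CRISPR-Ptch1 tumours and 0.277 in MERP against adult cerebellum. *Tap2* in Ptc+/- against GNPs was 0.487 (adjusted p = 0.0145) with arrays centred on the median of the genes. The cause was not tested. Of 50 calls in 15 comparisons, 26 were made in every alternative run.

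Replicate numbers did not pair the arrays: 46 pairs of arrays sharing a number had correlations of deviations between -0.255 and 0.233. With the replicate block, for which the TF tumour was left out, the counts were 2, 2, 2, 3 and 5, then 5, 6, 5 and 3.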
